A study of Schmidtea mediterranea with 10 samples.

Results

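The 142 genes described here were less abundant in sorted cells carrying either of 2 labels than in the cells left over by the same sort. They come from the planarian Schmidtea mediterranea, a flatworm that can rebuild any missing body part. One label marked piwi-1 transcripts and the other marked the transcripts of agat-1, agat-2 and agat-3. The genes were chosen from measured values. A gene needed a mean of 10 CPM (counts scaled to the assigned reads of a library) or more in both comparisons, a piwi-1 log2 ratio of -1 or less, and an agat log2 ratio of -0.5 or less. Both ratios set the positive over the negative gate after adding 1 to the CPM, and the agat ratio uses the mean of the 4 libraries of each gate. Of 36035 genes in the deposited tables, 7569 reached the level in both comparisons. Among those, 756 met the piwi-1 threshold, 678 met the agat threshold, and 142 met both.

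The worms were uninjured wild-type animals of the clonal asexual strain CIW-4 (C4), starved for at least 2 weeks at 20 °C, and cells of whole animals were sorted. Sorting on the pooled agat probes yielded 4 positive and 4 negative libraries, labelled as biological replicates. The piwi-1 probe gave 1 piwi-1-positive and 1 piwi-1-negative library. Cells were fixed and dissociated in ACME (an acetic acid and methanol solution) and labelled by the hybridization chain reaction, which makes cells that hold a chosen transcript fluoresce. The cells came from pools of worms, about 160 in all for both labels and a control without probes that is not analysed here. Whether each replicate was its own pool is not given. Each negative gate holds every cell type without that label: piwi-1 transcripts stood at 398 to 573 CPM in the agat-negative libraries, and agat-1 transcripts at 81.2 CPM in the piwi-1-negative library. The positive gates held transcripts of the other label too. piwi-1 stood at 180 to 393 CPM in the agat-positive libraries, and agat-1 at 128 CPM in the piwi-1-positive library, above its piwi-1-negative level.

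Planarian tissues are renewed from neoblasts, the dividing stem cells, which are marked by piwi-1, a gene of the PIWI family. Their offspring stop dividing and pass through progenitor stages before they become mature cells. The agat genes, relatives of the enzyme that starts creatine synthesis, mark a late progenitor stage on the way to the epidermis. Muscle, nerve, gut, excretory and pharyngeal cells are other mature types of the animal, and each makes transcripts of its own. No names come with the gene IDs in the deposited tables, so none of the 142 genes can be assigned here to such a tissue, to a pathway or to a protein. They are described by their levels. In sorted bulk samples, fewer cells of a type and less RNA per cell cannot be told apart.

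The libraries held 35081410 to 51821158 assigned counts. In the labels, the table columns of agat-negative and agat-positive replicate 4 follow a different naming scheme from those of the lower-numbered agat replicates. Whether a separate sort lies behind this is not given. The probe targets followed their gates. Where 4 values of a gate follow each other here, they belong to replicates 1 to 4 in that order. The agat-positive gate had 1627, 305, 234 and 1564 CPM of agat-1, the negative gate between 14.7 and 94.6 CPM. piwi-1 reached 1267 CPM in the piwi-1-positive and 199.9 CPM in the piwi-1-negative library. agat-negative replicate 4 stood apart, with 34.5% unmapped reads, where the remaining negative libraries had 21.2% to 24.5%, and with 28497 genes that had a count, where those had 30435 to 31213. In agat-negative replicate 4 the median CPM over the 7569 genes was 27.7, against 34.2 to 34.9 in the other 3 negative libraries. Results that rest on this library are given with and without it.

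The members ran from just past both thresholds to near absence in the piwi-1-positive library. The piwi-1 log2 ratios of the 142 genes lay between -7.04 and -1.004, with a median of -1.30, where the median of the 7569 genes was -0.12. The threshold was met by 9.99% of the 7569 genes there. The agat log2 ratios of the members lay between -2.87 and -0.50, with a median of -0.76 beside -0.11 over the 7569 genes, of which 8.96% met the threshold. These values chose the genes and are a description. At the edge of the agat threshold, the last member had a log2 ratio of -0.503 and the nearest gene outside had -0.497. At the piwi-1 threshold these values were -1.004 and -0.997. Within 0.1 of the agat threshold lay 31 members and 47 genes outside, and within 0.1 of the piwi-1 threshold lay 25 members and 30 genes outside.

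**Figure D1:**
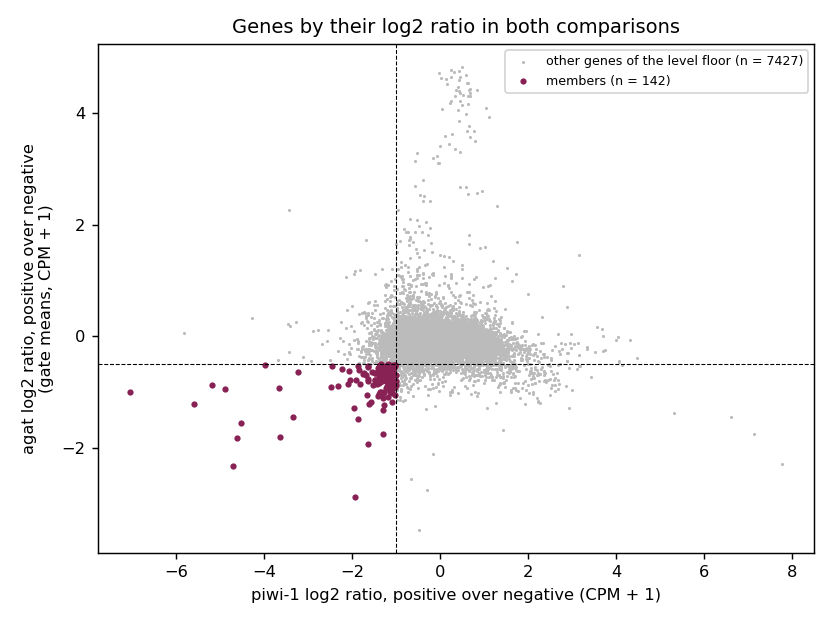
Each point is a gene with a mean of 10 CPM or more in both comparisons, placed by its piwi-1 log2 ratio (horizontal) and its agat log2 ratio (vertical), with the 142 members in purple and both thresholds as dashed lines. Most members crowd the corner where the thresholds meet, and a few reach piwi-1 log2 ratios of -4 or less.

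Meeting one threshold and meeting the other overlapped in part. Of the 756 genes past the piwi-1 threshold, 18.8% were also past the agat threshold, and of the 678 genes past the agat threshold, 20.9% were also past the piwi-1 threshold. The comparisons share no library. Most members were moderate in both: 123 of 142 had a piwi-1 log2 ratio above -2, and 115 had an agat log2 ratio above -1. For piwi-1, 12 members lay above -4 and up to -2, and 7 lay at -4 or less. In the agat comparison 25 members lay above -2 and up to -1, and 2 lay at -2 or less. By mean CPM over the 10 libraries, 48 members had 10 to 30, 56 had 30 to 100 and 38 had 100 or more.

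Together the members held a larger share of the reads in the negative gates. The rule fixed this direction for the agat gate means and the piwi-1 pair, so the shares are a description. The members held 3.52 ± 2.14% of assigned counts in agat-negative and 1.66 ± 0.443% in agat-positive libraries (SD, n = 4). Library by library it came to 2.72%, 2.49%, 2.16% and 6.72% in the agat-negative gate and 1.21%, 1.95%, 2.12% and 1.36% in the agat-positive gate. In assigned counts the groups did not overlap, but agat-negative replicate 3 and agat-positive replicate 3 nearly met. Per length, in the authors' TPM, the groups overlapped. There agat-negative replicate 3 had 1.19%, below agat-positive replicates 2 and 3 at 1.21% and 1.38%. Without agat-negative replicate 4 the negative mean was 2.46%. The piwi-1-negative library gave 2.11% and the piwi-1-positive one 0.711%. The piwi-1-negative share thus lay close to those of agat-negative replicate 3 and agat-positive replicate 3.

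**Figure D2:**
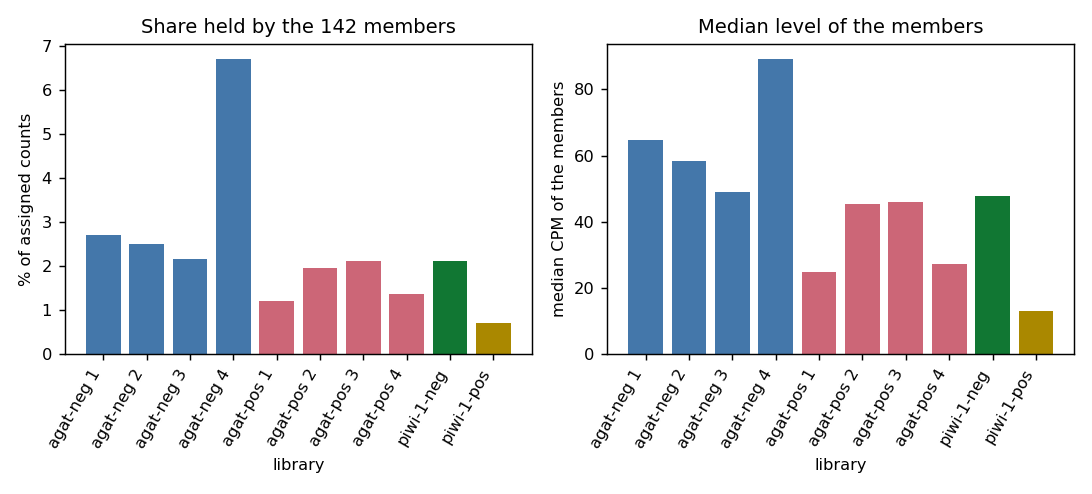
Bars give, for each of the 10 libraries, the percent of assigned counts held by the 142 members (left) and their median CPM (right), both from 0. agat-negative replicate 4 is highest in both panels, at 6.72% and 89.2 CPM, and the piwi-1-positive library is lowest, at 0.711% and 12.9 CPM.

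The rule took gate means, which did not fix the order of the libraries within a gate. It favours genes that are very low in 1 positive or very high in 1 negative library, so the order is a description. The median CPM of the members was 64.7, 58.3, 48.9 and 89.2 in the agat-negative gate and 24.9, 45.5, 46.1 and 27.2 in the agat-positive gate. Among the positive libraries, replicates 1 and 4 were low, and replicates 2 and 3 lay just under the lowest negative library. That last order depended on the scaling. TMM factors correct for the makeup of a library. They were 1.10 for agat-negative replicate 3 and 1.01 for agat-positive replicates 2 and 3. Dividing by them put these positive libraries just above that negative one. The median level of all 7569 genes varied less, from 29.1 to 32.7 CPM over all agat-positive libraries. Set against the mean of the negative libraries, all 142 members lay at a log2 ratio of -0.5 or less in agat-positive replicate 1 and 140 did in replicate 4. The numbers were 71 in replicate 2 and 56 in replicate 3. Over the 7569 genes the corresponding shares were 29.0%, 21.9%, 4.36% and 4.02% for replicates 1, 4, 2 and 3. The label "low in the agat-positive gate" therefore holds for every member in replicate 1 and for a minority of members in replicate 3. Replicates 1 and 4 are also the positive libraries with the highest agat-1 levels, given above, and the part of those levels in the members' order was not tested.

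The lowest agat library of a member was agat-positive replicate 1 for 94 genes and agat-positive replicate 4 for 34. Over the 7569 genes these shares were 26.4% and 9.82%. Another 13 members had their lowest value in an agat-negative library: 5 in replicate 4, 6 in replicate 2, and 1 each in replicates 1 and 3. An agat-negative library was the lowest for 58.4% of the 7569 genes. For 1 member the lowest was agat-positive replicate 2, as for 2.29% of the genes. The highest agat library was a negative one for all 142 members. The rule asks for a lower positive mean and so favours these orders. Among the 8 agat libraries it was agat-negative replicate 4 for 114 members, or 80.3%, and for 23.4% of the 7569 genes. agat-negative replicates 1, 2 and 3 were the highest for 16, 7 and 5 members, beside 17.5%, 16.5% and 17.7% of the genes.

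**Figure D3:**
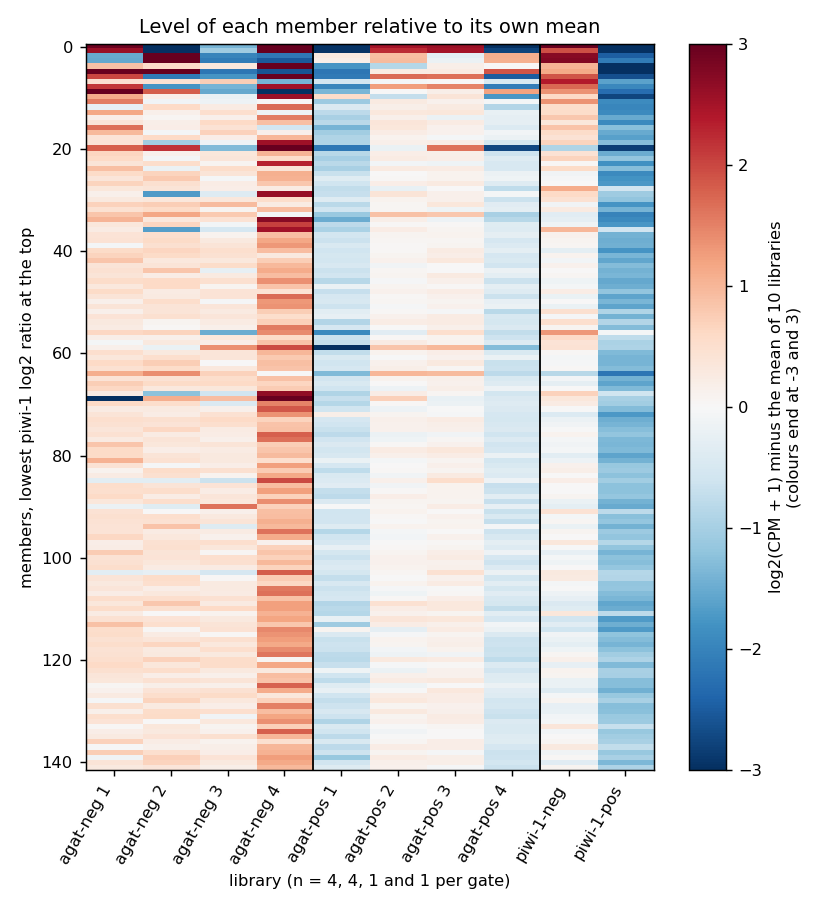
Each row is a member, ordered by its piwi-1 log2 ratio with the lowest at the top, and each column is a library; colour gives log2(CPM + 1) minus the member's mean over the 10 libraries. Most rows are red in agat-negative replicate 4 and blue in agat-positive replicates 1 and 4 and in the piwi-1-positive library, while the top rows jump between libraries of the same gate.

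agat-negative replicate 4 carried much of the agat difference. In this library the members stood a median log2 of 0.62 above the median of the other 3 negative libraries, where the 7569 genes stood at -0.32. At least 2-fold above the median of the other negative libraries lay 38 members (26.8%), against 2.55% of all 7569 genes. Because the rule uses means, a gene high in 1 negative library can meet it. Without agat-negative replicate 4 the median agat log2 ratio of the members was -0.56, beside -0.16 over the 7569 genes, and 89 of the 142 still had -0.5 or less. That threshold was met by 9.58% of the 7569 genes in these libraries. Without both libraries numbered 4 the median was -0.48, beside -0.15 over the 7569 genes, and 62 members remained past the threshold, which 6.37% of the genes met. Of the 142, 132 were below 0, as were 74.8% of the genes, and 10 had a log2 ratio of 0 or more. The unmapped reads and gene counts of agat-negative replicate 4 are given above, and their part in the members' values was not tested.

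**Figure D4:**
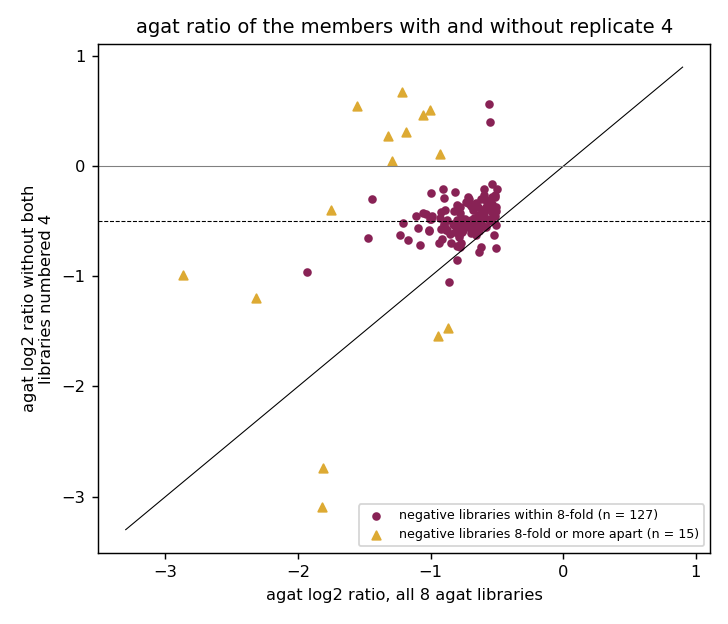
Each point is a member, with its agat log2 ratio over all 8 agat libraries (horizontal) and without both libraries numbered 4 (vertical); triangles are the 15 members whose negative libraries lay 8-fold or more apart, and the sloping line marks equal values. Most points rise above the line, and 80 of the 142 lie above the dashed threshold of -0.5.

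edgeR called no member. Its quasi-likelihood test with Benjamini-Hochberg adjustment called 0 of 22954 genes lower in agat-positive cells (0%), and so 0 of the 142 members, all of which were tested. At an unadjusted p under 0.05, edgeR had 85 members lower, beside 5.38% of the 22954 genes. The rule used this contrast, so the count describes the choice. Without agat-positive replicate 1 it was 33 members, beside 2.86% of the genes tested there. Without agat-positive replicate 4 it was 36, beside 2.72%, and without agat-negative replicate 4 it was 47, beside 5.05%. Without both libraries numbered 4 it was 25, beside 3.25%. With any other single library left out, 81 to 97 members had such a p, beside 4.43% to 6.43% of the genes. DESeq2 called 0.224% of its 34750 genes lower, among them 1 of the 135 members for which it gave a p. In library-size CPM, 74 members were lower in all 4 positive libraries than in all 4 negative ones, beside 9.18% of the 7569 genes. With TMM factors, which correct for the makeup of a library, 47 members had groups that did not overlap, beside 3.62% of the genes.

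The member called by DESeq2 was SMED30030352, named here after its values were seen. It stood at 44.9, 39.8, 40.8 and 41.9 CPM in the agat-negative gate and at 19.0, 26.6, 29.1 and 19.9 CPM in the agat-positive gate. All negative libraries agreed closely, agat-negative replicate 4 among them, and all lay above the positive ones. The agat-negative mean was 1.77 times the agat-positive mean. Between the piwi-1 libraries the gene had 21.9 CPM in the negative and 8.10 CPM in the positive library. Its piwi-1-negative level thus lay inside the range of the agat-positive libraries.

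The 47 members whose groups did not overlap with TMM factors had a median CPM of 77.1, 84.1, 78.2 and 135.5 in the agat-negative gate and 36.7, 56.8, 60.8 and 44.0 in the agat-positive gate. It was 57.4 in the piwi-1-negative and 24.3 in the piwi-1-positive library. Without both libraries numbered 4 their agat log2 ratios lay between -1.20 and -0.35, and 36 of them stayed at -0.5 or less. These genes were picked on the same libraries, and groups that do not overlap fix the sign of these ratios up to the scaling, so the values describe them.

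The member that held the most reads was SMED30005324, which was singled out after its values were seen. It had 5599, 6214, 4579 and 21296 CPM in the agat-negative gate and 2471, 4055, 3927 and 3106 CPM in the agat-positive gate. The groups did not overlap, and agat-negative replicate 4 lay more than 3-fold above any other library. The agat log2 ratio was -1.47, and -0.69 without agat-negative replicate 4. In the piwi-1 pair it had 4425 CPM in the negative and 1216 CPM in the positive library, a ratio of 3.64 (95% exact binomial interval 3.60 to 3.68). This gene alone made up 17.1% to 31.7% of the members' counts in a library. Per length, in the authors' TPM, it stood at 1411 in the piwi-1-negative and 418 in the piwi-1-positive library. Intervals here and below cover counting error only.

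SMED30019948 had the lowest agat log2 ratio of all members, at -2.87. It had 591, 759, 66.8 and 3994 CPM in the agat-negative gate and 37.4, 146, 528 and 24.6 CPM in the agat-positive gate. The groups overlapped, since agat-negative replicate 3 lay below agat-positive replicates 2 and 3. Without agat-negative replicate 4 the log2 ratio was -1.35. In the piwi-1 pair it had 90.3 CPM in the negative and 22.8 CPM in the positive library, a ratio of 3.96 (95% exact binomial interval 3.66 to 4.28). The piwi-1-negative level was far under that of 3 of the 4 agat-negative libraries.

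SMED30025852 had the next lowest agat log2 ratio, at -2.32. It stood at 31.7, 25.2, 21.3 and 184 CPM in the agat-negative gate and at 4.25, 8.87, 19.4 and 17.0 CPM in the agat-positive gate. Its groups did not overlap, though agat-negative replicate 3 lay close to agat-positive replicate 3. Without agat-negative replicate 4 the agat log2 ratio was -1.02. In the piwi-1 pair it had 1261 counts in the negative and 13 in the positive library, a ratio of 94.8 (95% exact binomial interval 55.2 to 178). It was lower in each of the 5 positive libraries than in any of the 5 negative ones.

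The members with the lowest piwi-1 log2 ratios behaved in another way in the agat libraries. SMED30012932, at -7.04, had 1019 CPM in the piwi-1-negative and 6.73 CPM in the piwi-1-positive library, a ratio of 151 (95% exact binomial interval 133 to 173). In the agat libraries it had 1003, 14.3, 49.0 and 2013 CPM in the negative gate and 16.2, 734, 774 and 11.7 CPM in the positive gate. It was thus high in 2 and low in 2 libraries of each agat gate, and the groups overlapped widely. The agat log2 ratio of -1.002 became 0.11 without agat-negative replicate 4.

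SMED30022639, at a piwi-1 log2 ratio of -5.61, was high and low in the same libraries. It had 215, 3.57, 16.3 and 655 CPM in the agat-negative gate and 3.73, 169, 204 and 4.31 CPM in the agat-positive gate. In the piwi-1 pair it had 137 CPM in the negative and 1.82 CPM in the positive library, a ratio of 74.9 (95% exact binomial interval 58.5 to 97.4). The agat log2 ratio of -1.22 became 0.28 without agat-negative replicate 4. Neither gene met the rule without that library.

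**Figure D5:**
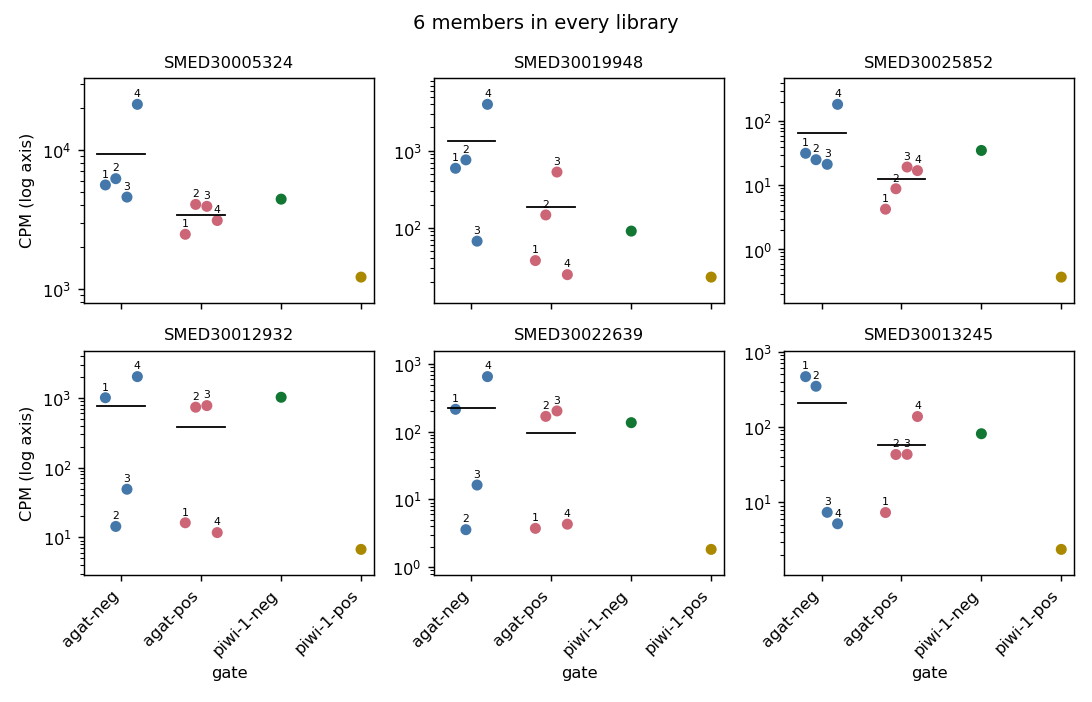
CPM on a log axis in every library for 6 members; numbers beside the points are replicate numbers and black lines are gate means (n = 4). SMED30005324 and SMED30025852 have agat groups that do not overlap, while SMED30012932 and SMED30022639 are high in agat-negative replicates 1 and 4 and in agat-positive replicates 2 and 3.

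Such jumps between libraries of the same gate concerned a small group of members, and are given as folds in CPM + 1. The highest and lowest agat-negative libraries lay 8-fold or more apart in 15 members (10.6%), against 1.41% of the 7569 genes. In the agat-positive gate this was so for 7 members (4.93%), against 0.608%. All 7 members with a piwi-1 log2 ratio of -4 or less were among the 15. The median agat log2 ratio of the 15 members went from -1.29 to -0.24 without agat-negative replicate 4, and to 0.05 without both libraries numbered 4, when 8 of the 15 had 0 or more. For the other 127 members these medians were -0.73, -0.56 and -0.48.

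The following 6 genes were picked among the 15 after their values were seen, because they ran together in groups. SMED30011668 had 113, 5.51, 7.33 and 437 CPM in the agat-negative gate and 5.53, 91.0, 87.8 and 4.00 CPM in the agat-positive gate. SMED30012591 had 731, 48.1, 63.4 and 966 CPM in the agat-negative gate and 42.4, 397, 470 and 39.0 CPM in the agat-positive gate. Both were high and low in the same libraries as SMED30012932 and SMED30022639. These 4 genes were also high in the piwi-1-negative library, with 104 CPM for SMED30011668 and 556 CPM for SMED30012591, against 3.53 and 43.2 CPM in the piwi-1-positive one.

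SMED30013245 and SMED30035446 shared another order. SMED30013245 had 467, 348, 7.35 and 5.18 CPM in the agat-negative gate and 7.30, 43.2, 43.3 and 138 CPM in the agat-positive gate. SMED30035446 had 236, 63.9, 5.33 and 1.21 CPM in the agat-negative gate and 6.14, 17.2, 19.8 and 41.5 CPM in the agat-positive gate. Here agat-negative replicate 4 was the lowest negative library rather than the highest. The agat log2 ratio of SMED30013245 was -1.82 over all agat libraries, -2.22 without agat-negative replicate 4 and -3.09 without both libraries numbered 4. For SMED30035446 these values were -1.81, -2.21 and -2.74.

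SMED30030461 and SMED30002027 rested on agat-negative replicate 2. SMED30030461 had 59.4 CPM in agat-negative replicate 2 and 0.331 to 1.06 CPM in the other 3, and 3.84 to 11.6 CPM in the agat-positive libraries. SMED30002027 had 95.1 CPM in agat-negative replicate 2 and 0.551 to 2.07 CPM in the other 3, and 6.84 to 17.4 CPM in the agat-positive libraries. For both genes, 3 of the 4 agat-negative libraries lay below every agat-positive one. In the piwi-1 pair SMED30030461 had 1355 counts in the negative and 2 in the positive library, a ratio of 662 (95% exact binomial interval 183 to 5471).

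Levels were also compared across the 2 labels, which the rule did not set side by side. These values cross separate labellings with 1 piwi-1 library a gate, and so carry no test. The mean agat-negative level of a member stood a median log2 of 0.57 above its piwi-1-negative level, where all 7569 genes stood at 0.13. It was the higher one for 120 of the 142 members (84.5%) and for 64.6% of all genes. The mean agat-positive level stood a median log2 of 1.15 above the piwi-1-positive level, where all genes stood at 0.18, and 103 members were at least 2-fold higher there, or 72.5% against 9.91% of all genes. In 132 members the piwi-1-positive library lay below every agat-positive library, which held for 44.0% of the 7569 genes. In 128 members it lay below every other library of the series, an order found in 26.1% of the genes. All of these levels entered the rule, which favours high negative and low positive ones, so the values across labels are a description. The threshold was stricter in the piwi-1 pair than in the agat comparison, which bears on the order of the positive libraries.

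The members differed widely in an index of transcript length. CPM divided by the authors' TPM grows with transcript length, and also moves where reads shared between related genes are assigned differently. Scaled so that the 7569 genes have a median of 1, this index had a median of 1.04 in the members. With the 7569 genes cut into 5 equal bands by this index, 42 of the 142 members lay in the top band and 35 in the bottom band, and 18 to 24 in each band between. At 2 or more lay 28.2% of the members, against 17.7% of all genes. At 0.5 or less lay 23.2%, against 18.0%. The index also moved with the agat log2 ratio over all genes, whose median went from -0.05 in the bottom band to -0.17 in the top band. For the piwi-1 log2 ratio these medians were -0.03 and -0.14. Its part in the members' values was not tested.

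Members with the strongest piwi-1 differences had a low median index, but varied among themselves. The median was 0.29 for the 7 members at a piwi-1 log2 ratio of -4 or less, 0.40 for the 12 members above -4 and up to -2, and 1.26 for the 123 others. The range of the negative libraries went the other way, with a median log2 of 6.07, 1.82 and 0.84 in the same order. Among the 7 members, SMED30012932, SMED30022639 and SMED30025852 had an index of 0.77, 0.84 and 0.74. The others of the 7 had 0.11 to 0.29.

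The authors' TPM gave the same sides with shifted sizes. The median log2 ratio of the members in TPM was -0.90 in the agat comparison and -1.19 in the piwi-1 pair, beside -0.26 and -0.02 over the 7569 genes. An agat log2 ratio of -0.5 or less held in TPM for 141 of the 142 members, beside 18.5% of the 7569 genes. A piwi-1 log2 ratio of -1 or less held for 113, beside 7.76%. The exception in the agat comparison was SMED30012714, named after its values were seen. Its agat log2 ratio was -0.56 in CPM and -0.03 in TPM, and its piwi-1 log2 ratio was -1.24 in CPM and -0.43 in TPM. This gene had 26.6, 26.8, 21.3 and 137 CPM in the agat-negative gate. Its agat log2 ratio in CPM was 0.50 without agat-negative replicate 4 and 0.56 without both libraries numbered 4.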

How the data were processed

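The authors deposited a table of counts per gene and a table of TPM values, made with STAR 2.7.10b and RSEM 1.3.1, per the submitters' processing notes. The build, annotation and strandedness used were not given in the sources used here. Per the labels, libraries were made by SMART-seq v4 and Nextera XT without molecular identifiers. The labels name the column of each sample. The 4 rows of the count table that name no gene held 22.8% to 36.98% of a library's reads and were left out.

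CPM were computed from the deposited counts, and log2 ratios with a pseudocount of 1. The agat gates were compared in R 4.3.3 with edgeR 4.0.16 (quasi-likelihood test, TMM factors, filterByExpr, no replicate block, two-sided, Benjamini-Hochberg adjusted p under 0.05), checked on simulated counts. DESeq2 1.42.0 and limma 3.58.1 served as alternatives. p-values measure the spread between the libraries labelled as biological replicates. Libraries of 1 gate differed by a chi-square per gene of 11.8 to 301, more than counting noise alone gives. In the agat-positive gate, replicates 2 and 3 (11.8) and replicates 1 and 4 (41.4) lay closer than the other pairs (165 to 237). The piwi-1 pair has 1 library a gate and no test. Its ratios carry exact binomial (Clopper-Pearson) intervals.

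The members, lists and measures were chosen with earlier results of these data known. The rule for named genes takes the probe targets, the 2 members with the lowest piwi-1 log2 ratio and the 2 with the lowest agat log2 ratio among the rest. Lists of cell type markers were set by gene name and could not be used, since all 36035 names in the TPM table are the IDs again.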

Additional observations from a re-analysis of the deposited data

Results flagged for a closer look

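In 14 groups of 4 libraries, 3 values lay far from the other libraries of their group, and all 3 were in agat-negative replicate 4. The rule used these libraries and favours genes with a very high value in an agat-negative library. The usual rate of about 1 in 20 groups by chance therefore does not apply, and the 14 groups hold related measures of the same libraries. The share of assigned counts held by the 142 members was 6.72% in agat-negative replicate 4, where the remaining negative libraries had 2.16% to 2.72%. SMED30025852 had 184 CPM there, against 21.3 to 31.7 CPM. SMED30005324 had 21296 CPM there, against 4579 to 6214 CPM. The cause was not tested.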

How the results depend on the processing

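The set of members depended on the libraries and the scale, and so did its median. In the edgeR fit with TMM factors the median log2 fold change of the members was -0.72, beside -0.06 over all genes tested. It was -0.38 without agat-negative replicate 4, beside -0.04, and -0.32 without both libraries numbered 4, beside -0.03. Of the 142 members, 85 met the rule in TPM with the level floor in TPM as well, 91 with a level floor of 20, 62 without both libraries numbered 4, and 89 to 142 with 1 agat library left out, lowest without agat-negative replicate 4. The rule found 91 genes with a floor of 20, 91 without both libraries numbered 4, and 109 to 205 with 1 agat library left out. The median piwi-1 log2 ratio was -1.54 with TMM factors and -1.19 in TPM. The share held in agat-positive libraries was 0.947% in TPM. DESeq2 called 78 genes lower in agat-positive cells and edgeR 0 with any 1 library left out. The agat log2 ratio of SMED30012932 turned to 0.11 without agat-negative replicate 4 and 0.51 without both libraries numbered 4, and that of SMED30022639 to 0.28 and 0.67. With 1 library left out these ratios ran from -1.60 to 0.11 and from -1.90 to 0.28. The median agat log2 ratio of the members ran from -0.87 to -0.56 with 1 library left out, and was -0.61 with the median of the libraries in place of their mean, an alternative added after seeing the data. With the replicate block, edgeR called 0 genes lower, had 48 members lower at an unadjusted p under 0.05, beside 3.28% of all genes tested, and gave a median log2 fold change of the members of -0.63. Libraries of the same number in both gates deviated together with correlations of -0.116 to 0.0529 over genes, so the numbers were not taken to pair the libraries. Some of these alternatives also leave fewer libraries or genes. The cause of the shifts was not tested.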
